A study of Mus musculus with 4 samples.

Results

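The genes described here are 10 hypoxia-responsive genes of the mouse, and they were compared between a pigmented and a non-pigmented line of cultured skin melanocytes. They are the hypoxia-inducible factor genes Hif1a and Epas1, the oxygen sensor genes Egln1 and Egln3, the mitophagy receptor genes Bnip3 and Bnip3l, the collagen prolyl hydroxylase genes P4ha1 and P4ha2, the growth factor gene Vegfa, and Ankrd37. Every probe set annotated to exactly 1 of these symbols was taken, which gave 17 of 45101 probe sets on the array and represented 9 of the 10 genes. Bnip3l had none, because its 3 probe sets also carry the symbol of a pseudogene, Bnip3l-ps, and its level is not given. Hif1a had 4 probe sets, Epas1, Egln1, Egln3, P4ha1 and Vegfa had 2 each, and Bnip3, P4ha2 and Ankrd37 had 1 each.

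Both lines have a Balb/c strain background. The non-pigmented line carries a homozygous point mutation in the tyrosinase gene, and the pigmented line is labelled wild type because that mutation was corrected. Both were grown with FCS, 2-mercaptoethanol and TPA, a phorbol ester, and total RNA was hybridised to 4 Affymetrix mouse arrays, 2 per line. The labels state neither an oxygen level nor a passage number, nor how the correction was made. Separate cultures for the arrays of a line are not stated either, and the p-values below then measure only the spread between these arrays, which may be technical.

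Hypoxia-inducible factor (HIF) is a transcription factor made of an oxygen-sensitive alpha subunit and a stable beta subunit, Arnt. When oxygen is available, prolyl hydroxylases of the Egln family mark the alpha subunit, and the Vhl ubiquitin ligase then sends it to the proteasome. When oxygen is low, the alpha subunit escapes and the dimer binds a short core sequence near its target genes, among them Bnip3, Vegfa and, as a feedback, Egln3. Control of the alpha subunit is thus largely at the protein level, which an expression array does not measure. In melanocytes Hif1a is also known as a target of the pigment cell factor Mitf.

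The promoter windows of the 4 genes with the largest differences between the lines are shown first, because they hold the HIF core letters. Each window runs from 250 bases before to 50 bases after an annotated start and is given in the direction of the gene, from RefSeq on GRCm38.p6. Capitals mark every match to ACGTG or GCGTG on either strand, so that CACGT and CACGC are marked too, and runs of more than 5 capitals are matches that overlap or touch.
Bnip3: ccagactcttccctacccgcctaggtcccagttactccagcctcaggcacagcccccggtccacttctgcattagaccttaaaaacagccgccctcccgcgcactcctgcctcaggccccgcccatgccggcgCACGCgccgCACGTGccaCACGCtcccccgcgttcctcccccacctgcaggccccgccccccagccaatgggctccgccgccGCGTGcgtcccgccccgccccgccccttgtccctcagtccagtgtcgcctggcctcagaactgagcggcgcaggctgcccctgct
Egln3: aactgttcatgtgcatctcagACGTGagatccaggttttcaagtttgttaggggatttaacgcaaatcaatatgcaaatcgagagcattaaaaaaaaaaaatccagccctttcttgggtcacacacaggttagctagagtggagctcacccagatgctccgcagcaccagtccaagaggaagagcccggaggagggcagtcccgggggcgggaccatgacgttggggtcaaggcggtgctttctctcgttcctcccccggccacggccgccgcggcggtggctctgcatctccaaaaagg
P4ha2: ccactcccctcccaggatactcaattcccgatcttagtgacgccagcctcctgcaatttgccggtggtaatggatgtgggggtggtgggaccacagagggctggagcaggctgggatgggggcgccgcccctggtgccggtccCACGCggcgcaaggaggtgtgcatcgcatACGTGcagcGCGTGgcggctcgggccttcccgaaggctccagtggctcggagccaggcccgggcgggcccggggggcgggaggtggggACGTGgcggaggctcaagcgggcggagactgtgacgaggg
P4ha1: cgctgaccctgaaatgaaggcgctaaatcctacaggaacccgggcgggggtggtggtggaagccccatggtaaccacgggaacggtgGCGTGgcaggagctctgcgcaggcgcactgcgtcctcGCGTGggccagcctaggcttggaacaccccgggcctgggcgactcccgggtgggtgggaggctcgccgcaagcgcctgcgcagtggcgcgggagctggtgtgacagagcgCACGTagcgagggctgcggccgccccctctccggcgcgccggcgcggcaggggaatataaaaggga
The Bnip3 window at chr7:138909457-138909756 (minus strand) held 2 matches to ACGTG, which overlap on opposite strands in a single palindrome whose first base lies 108 bases before the start, and 3 to GCGTG. The Egln3 window at chr12:54203825-54204124 (minus strand) held 1 match to ACGTG, 229 bases before the start, and 0 to GCGTG. The P4ha2 window at chr11:54100674-54100973 (plus strand) held 2 of each, and the P4ha1 window at chr10:59323046-59323345 (plus strand) held 1 match to ACGTG, whose first base lies 16 bases before the start, and 2 to GCGTG.

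A window was listed for 8 of the 10 genes, with 2 windows for Vegfa. All 8 genes held ACGTG in at least 1 window, or 8 of the 9 windows, and 6 of the 8 held GCGTG. For Vegfa both cores lay in 1 of the 2 windows, at chr17:46025114-46025413. On the minus strand of this gene that window is the downstream one. The upstream window, at chr17:46032328-46032627, held 0 of either. Over all 32851 windows of the same length in the table, 19.6% held ACGTG and 32.4% held GCGTG on either strand. The 9 windows were richer in G and C, at 54.7% to 86.0%, than the median window, at 52.7%, and windows of like composition were not compared. Hif1a and Egln1, whose signals differed little between the lines, also held ACGTG, with 3 matches and 1 match. Of the 3 in Hif1a, 2 overlap on opposite strands in a single palindrome. Because all 8 genes held ACGTG in a listed window, its presence could not separate the genes that fell from those that did not pass the test. For Vegfa this rests on the downstream window alone. A match describes letters and not a bound site.

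**Figure D1:**
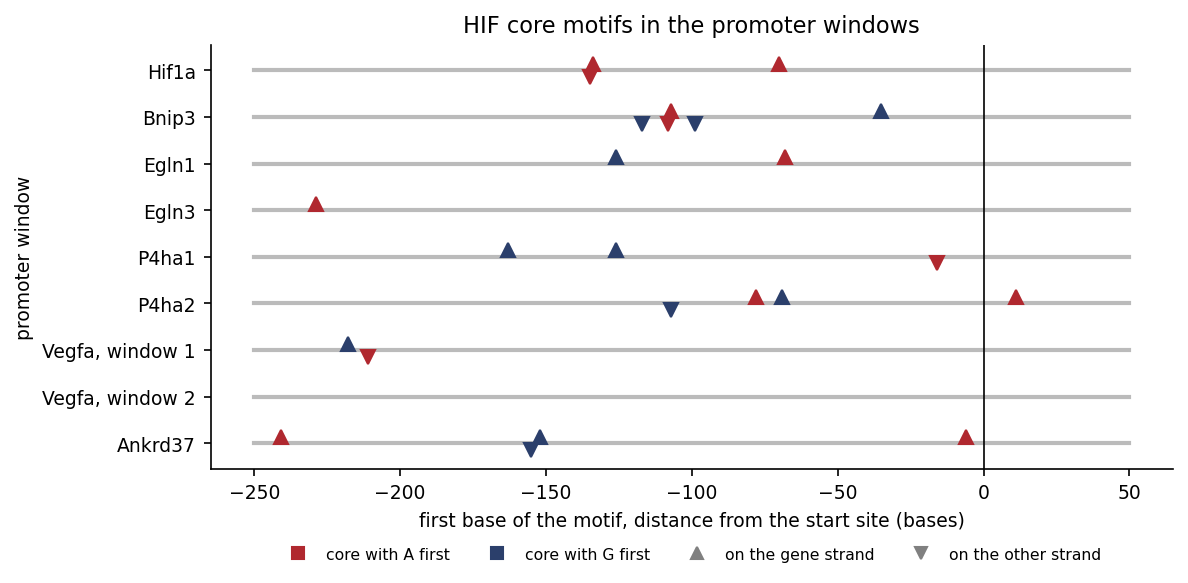
Position of the HIF core letters in the 9 promoter windows of 8 genes, with the distance of the first base of each match from the start site on the horizontal axis (bases) and 1 row per window. Red marks ACGTG and blue marks GCGTG, with the strand given by the direction of the triangle. Bnip3 has 5 matches, all before the start, and the upstream 1 of the 2 Vegfa windows has 0.

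Bnip3, Egln3 and P4ha2 were lower in the pigmented line, and none of the 10 genes passed the test as higher there. Each gene was represented by its probe set with the highest mean, and differences were tested with limma on log2(signal + 16), with p-values adjusted by the Benjamini-Hochberg method over all 12558 genes tested. Of the 8 hypoxia genes bright enough on average for the test, 3 fell and 0 rose at an adjusted p under 0.05. Of those 3, Bnip3 was bright enough through the non-pigmented line alone. Both its pigmented signals lay below 70.7, the level required of the mean. Over all genes tested, 3.36% were called in either direction, 2.03% as lower and 1.33% as higher in the pigmented line. At an unadjusted p under 0.05 limma gave 4 of the 8, of which 0 were higher, against 13.8% of all genes tested. The median log2 difference, pigmented minus non-pigmented, was -1.23 over the 8 genes and 0.07 over all genes tested. In 4 of the 8 genes both pigmented arrays lay below both non-pigmented arrays, which was so in 19.5% of all genes tested, and in 1 (Vegfa) both lay above, against 24.4%. The genes were chosen with earlier results of these data known, so these counts describe them and are not an independent test.

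**Figure D2:**
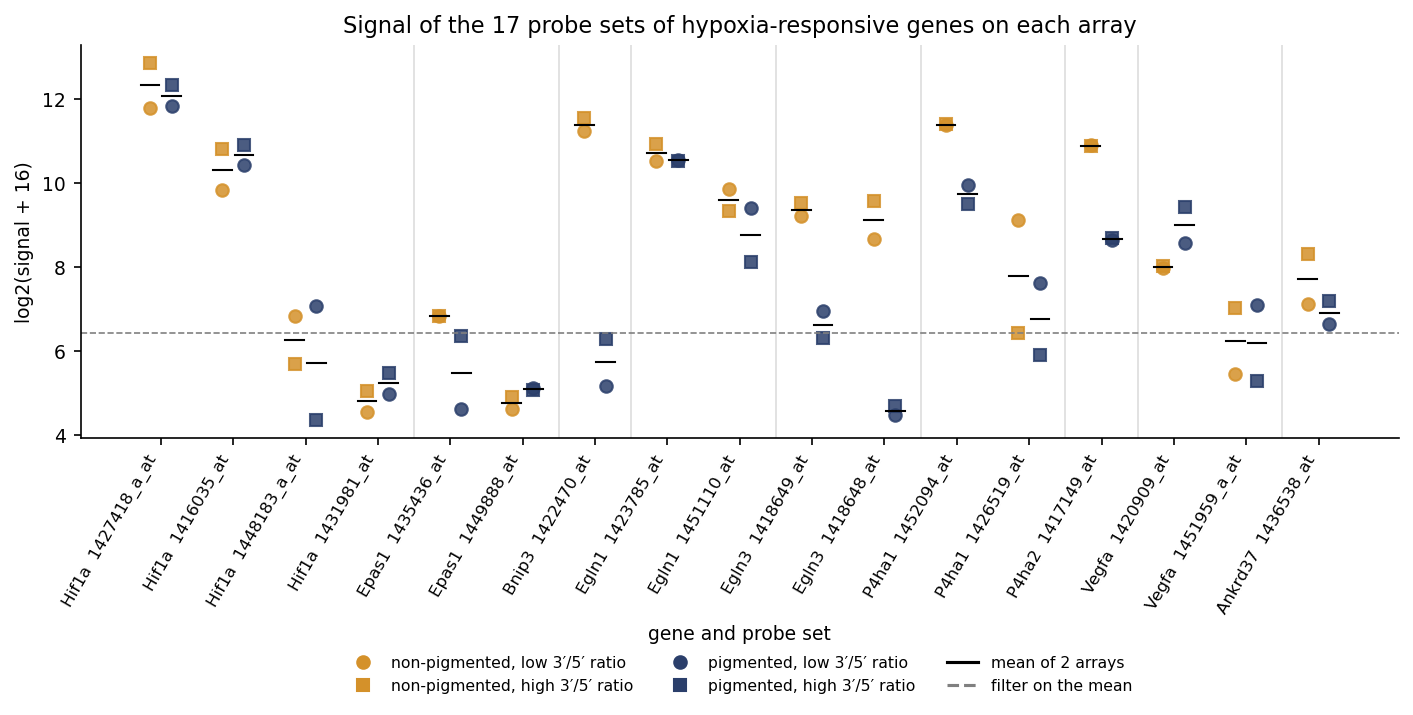
log2(signal + 16) of the 17 probe sets on each of the 4 arrays, with 1 column per probe set, colour for the line, symbol for the RNA integrity class of the array and a short bar for the mean of 2 arrays. The dashed line is the filter on the mean, at 6.44. Bnip3, both Egln3 probe sets and P4ha2 show 2 separate levels, whereas Hif1a and the brighter Egln1 probe set overlap between the lines.

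The arrays were comparable in bulk, which the authors' scaling favours, but not in the 3′ to 5′ ratio of a control. That ratio is what RNA integrity means here, and why it differed was not tested. Their median signal ran from 99.7 to 130. The ratio of 3′ to 5′ signal of the Gapdh control was 0.903 and 0.864 in replicate 1 of the non-pigmented and pigmented line and 20.2 and 16.8 in replicate 2, so that 1 array of either line had lost 5′ signal. The titles carry 2 dates, each shared by 1 array of either line in the other combination. Values within the pairs of like integrity and within the dates are therefore given beside the results. The labels were checked by Tyr, the tyrosinase gene, at signals of 214 and 67.2 in the non-pigmented and 17306 and 11698 in the pigmented arrays. This is a partial check, since the mutation itself need not alter RNA abundance. Of 10 melanocyte markers, limma called 7 as higher in the pigmented line, against 1.33% of all genes tested. In all 10 both pigmented arrays lay above both non-pigmented arrays, which was so in 24.4% of all genes tested. Sox10 was not called and was hardly separated. Its signal was 8268 and 8558 in the non-pigmented and 8602 and 10232 in the pigmented arrays, a log2 difference of 0.16. Of 7 Schwann cell and progenitor markers, limma called 5 as lower, against 2.03% of all genes tested, and all 7 had a negative difference. Their summed signal was 22625 and 27684 in the non-pigmented and 2339 and 3352 in the pigmented arrays, and none of them was at 0. Cdh19, which was not called and overlapped between the lines, gave 1867 and 2743 of the pigmented sums. Of 8 fibroblast, 7 keratinocyte, 6 immune and 5 endothelial markers on the array, 4, 4, 3 and 0 were bright enough to be tested. Of those tested, limma called 1 keratinocyte marker (Krt10, lower in the pigmented line) and 0 of the other 10, of which 3 had an unadjusted p under 0.05. The part of a shift in cell state or cell type in the results below was not tested. In bulk RNA, fewer cells of a type and less RNA per cell cannot be told apart.

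Bnip3 (Entrez gene 12176), which encodes a receptor in the outer mitochondrial membrane that recruits the autophagy machinery to mitochondria, had the largest difference among the 8. Its signal was 2401 and 3006 in the non-pigmented arrays and 20.0 and 62.6 in the pigmented arrays. The lines were far apart, and both pigmented values lay below a signal of 70.7, the level used as the filter on means. On the log2 scale the mean was 11.40 ± 0.23 (SD, n = 2) in the non-pigmented and 5.73 ± 0.80 (SD, n = 2) in the pigmented line. The log2 difference was -5.67 ± 0.52 (SE), or 50.8-fold, and limma gave an adjusted p of 0.00664. Only 0.446% of all genes tested had a difference of at least that size in either direction. The difference was -6.07 within the pair of arrays with intact 5′ signal and -5.27 within the other pair, and it was -4.94 and -6.39 within the dates. Because the pigmented signals are dim, the size depends on the pseudocount and was -4.74 with 64 and -6.20 with 1.

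Egln3 (Entrez gene 112407), an oxygen-dependent prolyl hydroxylase that acts on HIF alpha subunits and is itself induced by HIF, was measured by 2 probe sets, and both were lower in the pigmented line. The brighter one, 1418649_at, had signals of 580 and 721 in the non-pigmented and 108 and 63.6 in the pigmented arrays. Its log2 mean fell from 9.37 ± 0.22 (SD, n = 2) to 6.63 ± 0.45 (SD, n = 2), a difference of -2.74 ± 0.45 (SE), or 6.68-fold (limma adjusted p, 0.0321). The other, 1418648_at, had signals of 394 and 754 against 6.18 and 9.87. Its difference was larger, at -4.55 ± 0.54 (SE) in a limma fit over 27022 probe sets, with an adjusted p of 0.0230. Its pigmented signals lay far below the filter level, so that it passed the filter through the non-pigmented line alone. In neither probe set did the lines overlap, and 16.1% of all probe sets tested were separated in this direction. In that second fit 0.903% of probe sets were called as lower, and 2 of the 12 probe sets of hypoxia genes that could be tested were, those being Bnip3 and 1418648_at of Egln3. The brighter Egln3 probe set missed the threshold there, with an adjusted p of 0.0714. With the RNA integrity pair as a block 5 of the 12 probe sets were called as lower, against 2.71% of all probe sets tested. Within the pairs of like integrity the difference of the brighter probe set was -2.27 and -3.21. The call of Egln3 among genes was lost without non-pigmented replicate 1 (difference -2.89, adjusted p of 0.0986 by limma), without non-pigmented replicate 2 (-2.59, 0.146) and without the filter on dim probe sets (0.0705 over all 18193 genes).

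Egln1 (Entrez gene 112405), the main HIF prolyl hydroxylase in most cells, did not share that difference. The signal of its brighter probe set was 1454 and 1944 in the non-pigmented and 1492 and 1463 in the pigmented arrays, so that the lines overlapped. The log2 difference was -0.18 ± 0.41 (SE), with a 95% interval from -1.19 to 0.82 and an adjusted p of 0.899 by limma. The second probe set, at 918 and 630 against 664 and 261, also overlapped, and its difference of -0.84 had an adjusted p of 0.683 in the limma fit over probe sets. A test of the difference between the changes of Egln1 and Egln3 was not made.

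P4ha1 and P4ha2 encode catalytic alpha subunits of collagen prolyl 4-hydroxylase, which needs oxygen to hydroxylate procollagen, and both genes are known to respond to HIF. P4ha2 (Entrez gene 18452) had signals of 1909 and 1870 in the non-pigmented and 382 and 397 in the pigmented arrays. It had the closest agreement between arrays of a line among the genes that fell, with log2 means of 10.90 ± 0.02 (SD, n = 2) and 8.66 ± 0.04 (SD, n = 2). The difference was -2.23 ± 0.41 (SE), or 4.70-fold, and limma gave an adjusted p of 0.0438. It was -2.27 and -2.19 within the integrity pairs and -2.22 and -2.24 within the dates. The size hardly moved between settings, but the adjusted p lay close to the threshold. With the date as a block, where 1.96% of all genes were called as lower, it was 0.152, and without the filter 0.0559. Leaving out non-pigmented replicate 1, non-pigmented replicate 2 or pigmented replicate 2 also ended the call, with differences of -2.22, -2.25 and -2.26 and adjusted p-values of 0.227, 0.229 and 0.0665.

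P4ha1 (Entrez gene 18451) had the same direction and missed the threshold. Its brighter probe set, 1452094_at, had signals of 2678 and 2697 in the non-pigmented and 987 and 712 in the pigmented arrays, with no overlap. The difference was -1.66 ± 0.42 (SE), with a 95% interval from -2.68 to -0.65 and an adjusted p of 0.119 by limma. With the RNA integrity pair as a block the adjusted p was 0.0363, in a fit that called 4.32% of all genes as lower and 4 of the 8 hypoxia genes. The second probe set, 1426519_at, was higher on the array with intact 5′ signal in either line. It gave 542 on the intact and 70.8 on the other non-pigmented array, and 181 and 44.2 on the pigmented arrays in that order, so that the lines overlapped, with a difference of -1.02 ± 1.03 (SE). Within the pairs it was -1.50 and -0.53.

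**Figure D3:**
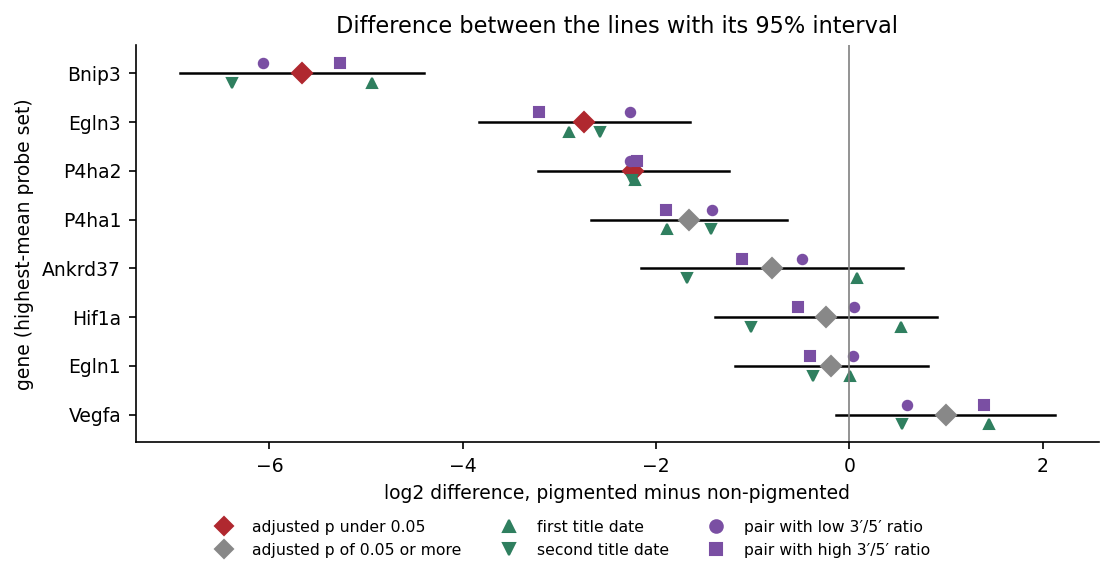
log2 difference, pigmented minus non-pigmented, of the 8 tested genes, with the limma estimate as a diamond and its 95% interval as a line. Small symbols give the difference within each title date (green) and within each pair of arrays of like RNA integrity (purple). The intervals of Bnip3, Egln3, P4ha2 and P4ha1 lie below 0, and only the first 3 had an adjusted p under 0.05.

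The genes of the HIF alpha subunits themselves gave no call. Hif1a (Entrez gene 15251) was bright in both lines, at 3548 and 7441 in the non-pigmented and 3667 and 5141 in the pigmented arrays for 1427418_a_at. The arrays that had lost 5′ signal were the higher ones in either line, and the lines overlapped. The log2 difference was -0.24 ± 0.47 (SE), with a 95% interval from -1.39 to 0.91 and an adjusted p of 0.882 by limma. A second bright probe set, 1416035_at, had signals of 898 and 1787 against 1367 and 1919 and a difference of 0.35 ± 0.52 (SE), so that no direction can be given for Hif1a. The remaining 2 probe sets had means below the filter. One of them, 1448183_a_at, ran the other way with integrity, at 98.7 and 119 on the intact and 35.8 and 4.55 on the other arrays. Epas1 (Entrez gene 13819), which encodes the second HIF alpha subunit, was too dim for the test in both probe sets. The brighter one had signals of 98.0 and 97.7 in the non-pigmented and 8.52 and 65.8 in the pigmented arrays, and the other stayed between 8.70 and 18.9 on all 4.

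Vegfa (Entrez gene 22339), the angiogenic growth factor and a classical HIF target, had the opposite sign to Bnip3. Its brighter probe set had signals of 237 and 246 in the non-pigmented and 366 and 674 in the pigmented arrays, with no overlap. The difference was 0.997 ± 0.468 (SE), with a 95% interval from -0.14 to 2.13 and an adjusted p of 0.438 by limma. It was 0.60 and 1.40 within the integrity pairs, and 0.57 without pigmented replicate 2. A second probe set had a mean below the filter. Ankrd37 (Entrez gene 654824), an ankyrin repeat gene known as a HIF target, had signals of 123 and 302 in the non-pigmented and 83.5 and 131 in the pigmented arrays. The lines overlapped, and the difference was -0.80 ± 0.56 (SE), with an adjusted p of 0.635 by limma. It was -0.20 without non-pigmented replicate 2 and -1.39 without non-pigmented replicate 1. From the most negative to the most positive difference the 8 genes ran from Bnip3 through Egln3, P4ha2, P4ha1, Ankrd37, Hif1a and Egln1 to Vegfa. The 95% intervals of neighbours in this order overlapped, except those of Bnip3 and Egln3. That exception depends on the Egln3 probe set. In the fit over probe sets the interval of 1418648_at, from -5.88 to -3.23, overlapped that of Bnip3, from -7.04 to -4.29.

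Other genes of the pathway were taken from 6 lists, of which 104 genes were on the array and 89 could be tested. Of these, 3 fell, 2 rose and 84 did not pass, or 5.62% called against 3.36% of all genes tested, and the median difference was -0.28. When the RNA integrity pair was a block, 12 fell and 4 rose, or 16 of 89, where 7.04% of all genes were called.

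Of 11 HIF subunits and regulators tested, 0 were called by limma, and 0 had an unadjusted p under 0.05. Arnt, the beta subunit, was at 529 and 2265 in the non-pigmented and 496 and 1637 in the pigmented arrays, with a difference of -0.28. As for Hif1a, the arrays that had lost 5′ signal were the higher ones. Vhl, the ubiquitin ligase subunit that recognises hydroxylated HIF alpha, differed by -0.71 (limma adjusted p, 0.616). The difference was -0.38 for Egln2, a further prolyl hydroxylase, and -0.37 for Hif1an, the asparagine hydroxylase that blocks coactivator binding. The median of the list was -0.28.

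The list closest in role to P4ha1 and P4ha2, that of collagen hydroxylation and folding, had a negative difference in all 9 genes tested, from -2.38 to -0.41, and a median of -1.03. None of the 9 passed limma's adjusted threshold, and 3 had an unadjusted p under 0.05. In 7 of them the pigmented arrays both lay below the non-pigmented arrays, against 19.5% of all genes tested. The largest difference was that of Plod2, a collagen lysyl hydroxylase and HIF target, which is named after its value was seen. Its signal was 7706 and 5424 in the non-pigmented and 1728 and 872 in the pigmented arrays, and its adjusted p was 0.0632 (0.0107 with the RNA integrity pair as a block).

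Other mitophagy genes gave no call. Of 14 tested, 0 passed limma's threshold and 1 had an unadjusted p under 0.05. Differences ran from -1.24 to 1.21 around a median of 0.13. The gene with the unadjusted p under 0.05 was Gabarapl1, which was higher by 1.21 in the pigmented line (limma adjusted p, 0.282). In the fit with the RNA integrity pair as a block, which called 4.32% of all genes as lower, Becn1, an autophagy gene, fell by 1.24. Its limma adjusted p was 0.0444, and 0.487 without the block. Its signal was 3480 and 9414 in the non-pigmented and 1594 and 3661 in the pigmented arrays, so that the lines overlapped. Both genes are named after their values were seen.

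Among 8 VEGF ligands and receptors tested, 12.5% were called, against 3.36% of all genes tested. Pgf, the placental growth factor, fell and the other 7 did not pass. Its signal was 342 and 384 in the non-pigmented and 34.6 and 6.65 in the pigmented arrays, a difference of -3.48 ± 0.54 (SE) with an adjusted p of 0.0270 by limma. The adjusted p was 0.0534 without the filter, 0.0538 with a pseudocount of 1 and 0.0568 in the fit over probe sets. Both pigmented signals lay below the filter level of 70.7, so that Pgf passed the filter through the non-pigmented line alone. Its difference was -2.35 with a pseudocount of 64 and -4.46 with 1. Pgf was too dim to be tested with either non-pigmented array left out or with a filter at the 60th percentile. Pgf and Vegfa thus had opposite signs, and a test of that contrast was not made.

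HIF target genes of metabolism were called in both directions. Of 22 tested, 1 fell and 2 rose, or 13.6% called against 3.36% of all genes tested. The difference was negative in 15, with a median of -0.86 over the list. In 12 both pigmented arrays lay below both non-pigmented arrays and in 5 above, against 19.5% and 24.4% of all genes tested. At an unadjusted p under 0.05 limma gave 9, against 13.8% of all genes tested. Pfkp, the platelet form of phosphofructokinase, had signals of 2732 and 2413 in the non-pigmented and 30.3 and 37.0 in the pigmented arrays and fell by 5.70 on the log2 scale, with an adjusted p of 0.00520 by limma. Of its 3 probe sets the other 2 had means below the filter, and the mean of all 3 differed by -2.56 with an adjusted p of 0.0964. Eno2, a neuronal form of enolase, rose from 39.1 and 13.7 to 902 and 1409, a difference of 4.82. Slc2a3, a glucose transporter, rose from 31.6 and 50.8 to 768 and 838, a difference of 3.86. Of its 4 probe sets 2 were bright enough to test, and both had this direction. The non-pigmented signals of Eno2 and Slc2a3 and the pigmented signals of Pfkp all lay below the filter level of 70.7. These genes thus passed the filter through 1 line alone. With pseudocounts of 64 and 1 the difference was -4.75 and -6.22 for Pfkp, 3.74 and 5.54 for Eno2, and 3.05 and 4.29 for Slc2a3. With probe sets whose IDs end in _a_at, _s_at or _x_at left out, neither Eno2 nor Slc2a3 was tested and 0 pathway genes rose, and Slc2a3 was too dim to be tested by the mean of its probe sets. The fit with integrity as a block called 7 as lower and 2 as higher. Of all genes that fit called 4.32% as lower and 7.04% in either direction.

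Of 25 other HIF target genes, 4% were called, against 3.36% of all genes tested. Vldlr, a lipoprotein receptor, fell and the other 24 did not pass. Its signal was 1461 and 3598 in the non-pigmented and 55.6 and 44.8 in the pigmented arrays, a difference of -5.13 ± 0.55 (SE) with an adjusted p of 0.00853 by limma. It was -2.83 with the mean of its 6 probe sets (adjusted p of 0.0379) and -2.89 with the brightest of those whose ID carries no such suffix (0.0350). In the fit over probe sets 4 were tested, of which 2 were called and 1435893_at (-2.89, adjusted p of 0.0757) and 1438258_at (-1.93, adjusted p of 0.437) were not. Both pigmented signals of the brightest Vldlr probe set lay below the filter level of 70.7. Its difference was -4.37 with a pseudocount of 64 and -5.49 with 1. The median of this list was 0.21. The fit with integrity as a block called 2 as lower and 2 as higher, against 7.04% of all genes in either direction.

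**Figure D4:**
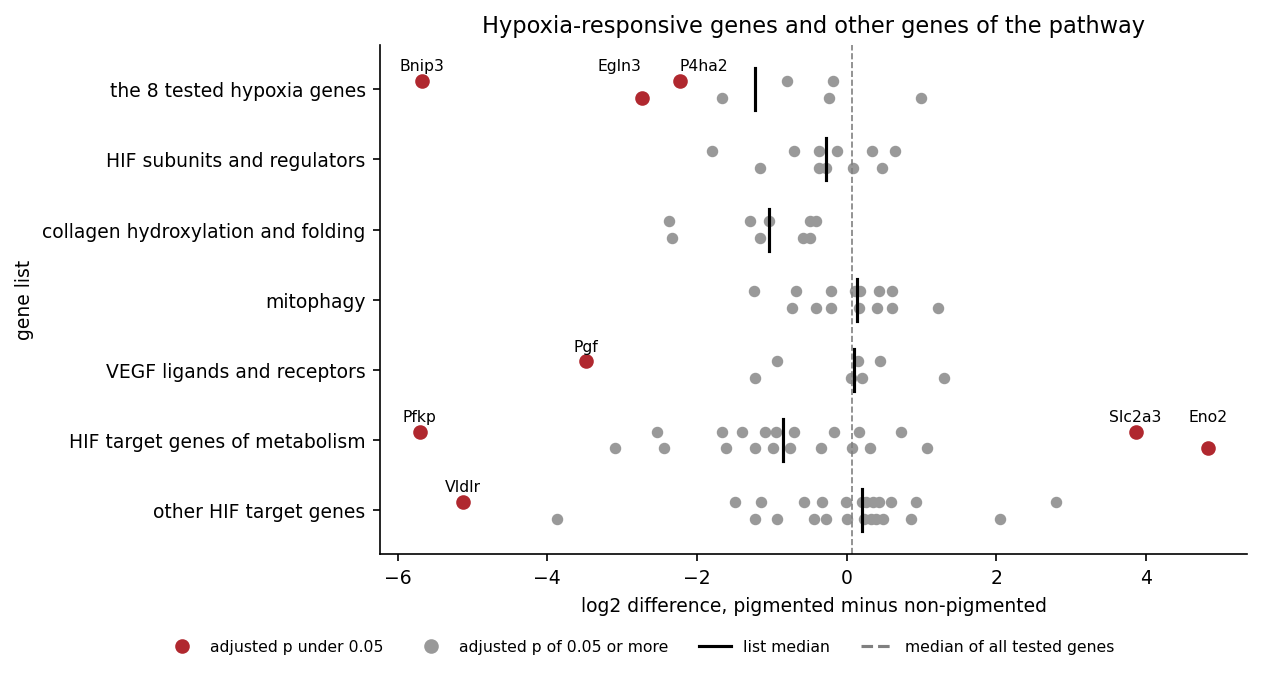
log2 difference, pigmented minus non-pigmented, of the 8 tested hypoxia genes and of the tested genes of 6 lists, with 1 point per gene, red points for an adjusted p under 0.05 and a black bar for the list median. The dashed line is the median of all genes tested, at 0.07. All 9 collagen hydroxylation and folding genes lie below 0, and the metabolic targets hold calls on both sides.

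The genes whose pattern over the 4 arrays was most like that of Bnip3, by Euclidean distance between log2 values centred on each gene's mean, were Ptk2b, a focal adhesion family kinase (distance 0.353), Lpcat2, an acyltransferase of phospholipid synthesis (0.494), and Bbox1, an enzyme of carnitine synthesis (0.505). Those nearest to Egln3 were Tnfaip2 (0.190), Ntn4, a secreted netrin (0.212), and Gm15050 (0.247). The log2 difference was -5.63 for Ptk2b and -2.71 for Tnfaip2. A small distance over these arrays requires a difference close to that of Bnip3 or Egln3, so the closeness is no separate result.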

How the data were processed

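RNA of 2 melanocyte lines was measured on 4 arrays. The deposited intensity values are linear probe set signals, made with Affymetrix Expression Console per the submitters' processing notes. Its version and summary algorithm are not given in the sources used here. Each deposited column had the same mean of 500 after 2% was trimmed from both ends, which shows scaling by the authors. No background or detection column was used, so dim signals cannot be separated from background.

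Of 45101 probe sets, 64 controls were left out. Symbols came from the platform annotation, where 34945 probe sets had 1 symbol, 932 several and 9160 none. Their Entrez numbers matched the RefSeq table for 34741, with 0 symbols changed. Of 18193 genes, each represented by its highest-mean probe set, 5635 were left out as dim, with a mean below the 40th percentile of the non-control probe sets (6.44 on the log2 scale, a signal of 70.7). limma 3.58.1 in R 4.3.3 (lmFit, eBayes with intensity trend) was run on log2(signal + 16), once over genes and once over all 27022 probe sets past the filter, with Benjamini-Hochberg adjustment. Such differences understate the change of dim genes. The threshold for a call was an adjusted p of 0.05. An exact permutation test of 2 against 2 arrays cannot go below 0.333. The code was tested on simulated data.

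The dates in the titles pair 1 array of either line. Their deviations from the line means correlated at -0.51 across genes, and at 0.51 for the RNA integrity pairs, which with 2 arrays per line is the same measurement. Integrity classes were set by a Gapdh 3′ to 5′ ratio above 3. The genes and lists were chosen with earlier results of these data known. The text names all 10 genes, Tyr, list genes past the test (up to 6 per list), Arnt, Vhl, Egln2 and Hif1an, and the 3 genes nearest to Bnip3 and to Egln3. Plod2, Becn1, Gabarapl1, Krt10, Sox10 and Cdh19 were named outside this rule, after their values were seen. The plots were made in Python 3.11.15 with matplotlib 3.10.9.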

Additional observations from a re-analysis of the deposited data

How the results depend on the processing

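Alternatives were the date or the RNA integrity pair as a block, quantile normalization, median centring, no filter or one at the 60th percentile, eBayes without trend or robust, pseudocounts of 1 and 64, averaging all probe sets of a gene, using unique probe sets alone (IDs without _a_at, _s_at or _x_at), and leaving out each array, with the lone array taken to vary as the other line does. Bnip3 kept its direction and its call in all 16, with differences from -6.23 to -4.74 and adjusted p-values up to 0.0171. Egln3 and P4ha2 kept their direction in all 16 and lost the call in 3 and 5. The count of hypoxia genes called was 3, 1 without the filter, and 1 to 3 with an array left out (1 without either non-pigmented array). That of their probe sets was 2, rising to 5 under the integrity block, 1 without the filter, 1 with a filter at the 60th percentile, and 1 to 3 with an array left out. Of pathway genes 5 were called, 16 with the integrity block, 3 with the mean of probe sets (2 lower, 1 higher), 3 with unique probe sets (3 lower, 0 higher), and 4 to 14 with an array left out (14 without pigmented replicate 1). Of all genes 422 were called, 392 with the date as replicate block, 884 with the integrity block, and 204 to 809 with an array left out (244 and 204 without non-pigmented replicates 1 and 2, 809 and 606 without pigmented replicates 1 and 2). The date block changed the call of P4ha2 and of no other of the 8 hypoxia genes. Uncalled differences changed sign for Hif1a (0.35 with unique probe sets, and -0.77 to 0.29 with an array left out), Egln1 (-0.39 to 0.023 with an array left out), 1416035_at of Hif1a (-0.14 to 0.84) and 1426519_at of P4ha1 (-2.36 to 0.33), and the cause was not tested. With an array left out, the uncalled differences of Ankrd37 (-1.39 to -0.20), Vegfa (0.57 to 1.42) and 1451110_at of Egln1 (-1.49 to -0.19) kept their sign. Median centring moved the median of all genes from 0.07 to -0.18. The mean and unique settings have no counterpart in the fit over probe sets. With 2 arrays per line a difference as large as -1.66 (P4ha1) did not pass, and sizes of genes with dim signal in either line depend on the pseudocount.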
